A study of Mus musculus with 24 samples.

Results

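The genes described here are 8 genes best known from group 2 innate lymphoid cells (ILC2s), examined in group 3 innate lymphoid cells (ILC3s) of the mouse small intestine: Arg1, Nmur1, Il1rl1, Il17rb, Klrg1, Il13, Il5 and Areg. For each gene, every deposited peak that overlapped the gene plus 10 kb on each side (mm10) was collected from all 24 peak lists, so the 8 windows are 8 of 21631 protein-coding genes measured. They held 48 of the 180880 H3K4me3 peaks and 9 of the 53940 CFP1 peaks. The set was chosen by the H3K4me3 of Arg1, present in WT and not in KO libraries, so the genotype values of H3K4me3 at the 8 genes are a description with no test.

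ILC2s are tissue lymphocytes that respond to epithelial and neuronal signals through receptors such as ST2 (from Il1rl1, for IL-33), the IL-25 receptor subunit IL-17RB and the neuromedin U receptor NMUR1, and that release IL-5, IL-13 and amphiregulin. ILC3s make IL-22 and IL-17. Trimethylation of lysine 4 of histone H3 (H3K4me3) marks active or poised gene starts, most of all at starts rich in CpG dinucleotides. CFP1, encoded by Cxxc1, binds unmethylated CpG and is a subunit of the SET1 complexes that deposit this mark.

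CUT&Tag, in which an antibody tethers a transposase to chromatin, had been run on 100000 sorted cells per library from 3 subsets of ILC3s: CCR6+, NKp46+ and DN. The WT group carried Cxxc1flox/flox, and the KO group carried the same floxed alleles with a Cre, so the Cre alone set the genotypes apart. Each of the 12 groups of genotype, subset and antibody held 2 libraries, giving 6 WT and 6 KO libraries per antibody. Mice are labelled as 6 to 8 weeks old, yet the protocols also speak of aged and young mice and of a culture medium. Nothing says whether replicates or subsets came from separate animals, so a p-value covers the spread among these libraries alone, which may be technical. In bulk peak lists of this kind, fewer cells that carry a mark and less of the mark per cell cannot be told apart.

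H3K4me3 lists held 12838 to 15397 peaks in WT and 11794 to 18127 in KO libraries, and CFP1 lists 4574 to 7983 in WT and 714 to 8881 in KO libraries. The KO CFP1 lists of replicate 2 in NKp46+ cells (4891 peaks) and in DN cells (8881 peaks) stood apart from the other 4 KO lists (714 to 1312 peaks), so CFP1 results are given with and without these 2. Median H3K4me3 peak widths were 791 to 976 bases in replicate 1 and 1078 to 1193 bases in replicate 2, and widths at single genes moved with this. The lists hold no read totals, so sequencing depth is unknown, and a missing peak means only that none was called. Of the defining ILC3 genes, H3K4me3 lay within 1 kb of the start of Il23r in 6 WT libraries and 1 KO library and of Gata3 and Kit in all 12. At Il22 it lay in 0.

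The reference promoters of 4 of the genes show how the starts differ in CpG, the dinucleotide that CFP1 binds. They come from the RefSeq promoter table of build GRCm38.p6 (the coordinates of mm10), run 5′ to 3′ on the gene's strand from 250 bases before to 50 bases after the start, and have each CG in capitals. Nmur1 (chr1:86389312-86389611, minus strand) carried H3K4me3 in WT libraries and in 1 KO library, Il17rb (chr14:30008847-30009146, minus strand) in all 12 libraries, Areg (chr5:91139349-91139648, plus strand) in 1 library, and Il1rl1 (chr1:40429320-40429619, plus strand) in 2 libraries.
Nmur1: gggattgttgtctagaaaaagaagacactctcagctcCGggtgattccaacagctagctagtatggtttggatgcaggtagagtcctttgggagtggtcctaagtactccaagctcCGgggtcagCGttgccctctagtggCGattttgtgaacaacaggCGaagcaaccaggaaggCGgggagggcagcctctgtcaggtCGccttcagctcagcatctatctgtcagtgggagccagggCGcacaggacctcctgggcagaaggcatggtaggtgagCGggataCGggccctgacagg
Il17rb: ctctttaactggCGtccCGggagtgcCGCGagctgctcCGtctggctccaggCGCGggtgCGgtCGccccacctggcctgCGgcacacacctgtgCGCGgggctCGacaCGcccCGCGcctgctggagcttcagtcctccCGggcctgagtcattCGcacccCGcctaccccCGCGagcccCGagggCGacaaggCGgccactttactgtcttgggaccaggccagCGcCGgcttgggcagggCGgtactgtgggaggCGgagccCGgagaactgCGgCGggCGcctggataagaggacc
Areg: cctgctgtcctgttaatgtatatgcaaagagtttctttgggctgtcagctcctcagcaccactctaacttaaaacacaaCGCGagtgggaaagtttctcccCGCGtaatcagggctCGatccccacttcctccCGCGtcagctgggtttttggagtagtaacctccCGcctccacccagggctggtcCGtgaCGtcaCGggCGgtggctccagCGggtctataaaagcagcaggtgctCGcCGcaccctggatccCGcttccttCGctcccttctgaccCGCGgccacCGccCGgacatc
Il1rl1: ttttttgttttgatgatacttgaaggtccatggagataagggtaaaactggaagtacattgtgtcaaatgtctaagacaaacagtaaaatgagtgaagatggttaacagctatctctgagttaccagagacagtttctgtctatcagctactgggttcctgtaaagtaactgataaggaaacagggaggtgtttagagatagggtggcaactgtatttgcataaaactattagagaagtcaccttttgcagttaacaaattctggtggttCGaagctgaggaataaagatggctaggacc

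Of the 8 genes, 6 matched the table, with 8 entries in all (2 each for Nmur1 and Il1rl1); Arg1 and Klrg1 did not match. The Il17rb promoter held 32 CpG in 300 bases, more than 87.3% of the 21045 promoter entries of protein-coding genes, whose median was 13. Areg followed with 21 CpG (66% of entries lower) and Nmur1 with 10 (42.7% lower). Il5 held 4, Il13 and the second Il1rl1 entry 3 each, the second Nmur1 start, inside the gene, 2, and the Il1rl1 promoter printed above 1 (4.46% lower). Among all entries, H3K4me3 in 12 libraries was listed at 1.81% of those with 0 to 2 CpG, at 24.8% of those with 6 to 10 and at 76.9% of those with 21 to 67. CFP1 in any library was listed at 1.51%, 17% and 64.5% of the same classes. The Areg promoter thus belongs to a class of which 11.1% carried H3K4me3 in 0 libraries, and it carried the mark in 1 library. The Nmur1 promoter belongs to a class of which 58.6% carried it in 0 libraries, and it carried the mark in 7.

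**Figure D1:**
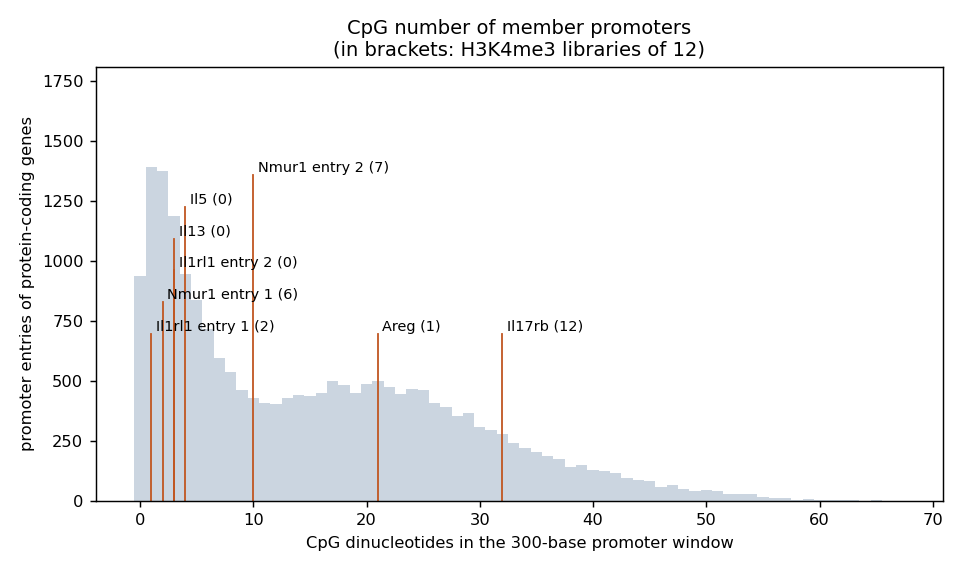
CpG number of the 300-base promoter (horizontal axis) for all 21045 entries of protein-coding genes (grey bars, number of entries) and for the 8 matched entries of the ILC2-associated genes (orange lines), with the number of H3K4me3 libraries of 12 within 1 kb in brackets. Il17rb with 32 CpG had 12 libraries, Areg with 21 had 1, and Nmur1 with 10 had 7.

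Short motifs were counted on both strands of the 8 entries. GATAA, the core bound by GATA3, was found in 5 of 8 entries, against 22.5% of all promoter entries. These were the inner Nmur1 start, both Il1rl1 entries, Il17rb and Il13. TGANTCA, an AP-1 site counted once for both strands, was in Il17rb alone (7.04% of all). In these entries 0 matches of different motifs shared a base. Such matches describe letters and are not evidence of binding.

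Arg1 encodes arginase 1, which breaks arginine down to ornithine and urea and is constitutively made by ILC2s. Its gene spans chr10:24915207-24927470. H3K4me3 was listed there in 6 of 6 WT and 0 of 6 KO libraries. Over all genes, 2060 windows carried H3K4me3 in 2 to 10 libraries, and 3 of them (0.146%) had this division, Arg1, Nupr1 and Hcn4; since Arg1 was chosen for it, nothing is read from that share. The bases covered in the Arg1 window were 1080 and 1920 in WT CCR6+ cells (replicates 1 and 2), 297 and 1746 in WT NKp46+ cells, and 376 and 1786 in WT DN cells. All 6 KO libraries were at 0, so the genotypes did not overlap, as at 0.166% of the 14497 windows with any H3K4me3. The mean was 1201 ± 731 bases (SD, n = 6) in WT and 0 in KO.

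The WT peaks at Arg1 fell at 2 places. The outer one lay at the gene's higher-coordinate end (chr10:24927014-24928228) and was listed in all 6 WT libraries, crossing that end in 5. Its fold enrichment, the authors' own value for a peak, was 6.15 and 6.2 in CCR6+ cells, 4.07 and 5.62 in NKp46+ cells, and 4.26 and 7.55 in DN cells, replicate 1 then replicate 2. These were modest peaks, above 5.5% to 40.1% of the peaks in their own lists. Their −log10 q, the authors' significance of a peak, ran from 2.51 in NKp46+ replicate 1 to 30.46 in DN replicate 2, so the weakest lay near the lowest value of its list (1.33). The inner place (chr10:24925377-24926639) was listed in 4 WT libraries, all but replicate 1 of NKp46+ and DN cells, with folds of 3.48 to 4.39. Both places lie inside the lncRNA gene Gm40616 (chr10:24922690-24930504, plus strand), which overlaps Arg1. No peak at either place came within 1 kb of a listed start of Gm40616. All came within 1 kb of the higher-coordinate end of Arg1, which has no listed start. Which gene the mark belongs to was not tested further. With peaks of fold 5 or more alone, Arg1 kept the mark in 4 WT and 0 KO libraries, and the covered bases differed by −521 instead of −1201.

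**Figure D2:**
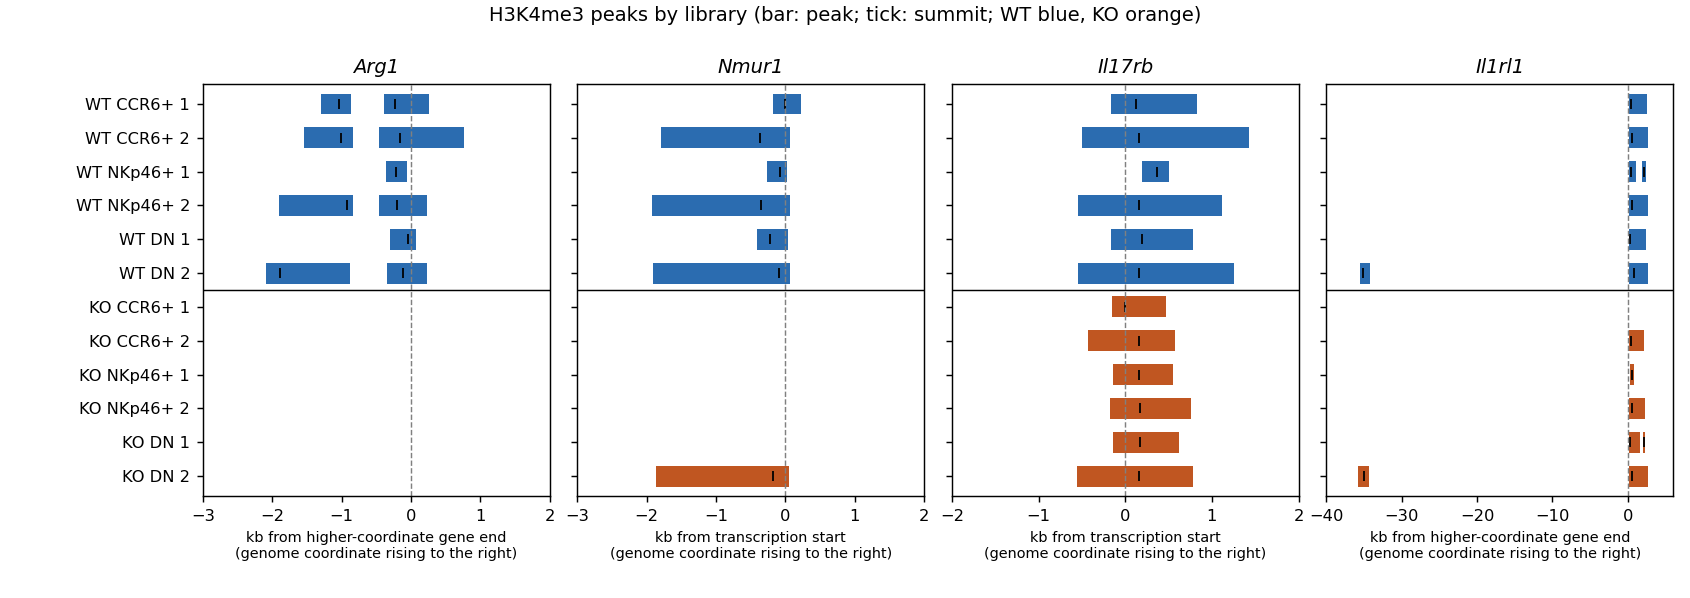
H3K4me3 peaks (bars) and their summits (ticks) in each of the 12 libraries (rows, WT blue, KO orange) at Arg1, Nmur1, Il17rb and Il1rl1, in kb from the gene end or start named under each panel, genome coordinates rising to the right. Arg1 bars are in 6 WT and 0 KO rows, Il17rb bars are in all 12 rows, and the Il1rl1 peaks lie beyond its higher end, with inner ones in DN replicate 2 of both genotypes.

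The KO libraries without Arg1 peaks included the longest lists. The KO lists of CCR6+ replicate 2 (18032 peaks), NKp46+ replicate 1 (16635), NKp46+ replicate 2 (18127) and DN replicate 2 (16422) were each longer than every WT list. In all 6 KO libraries the nearest H3K4me3 peak lay 44.7 to 44.8 kb away, at the lower end of Med23, the neighbouring Mediator subunit gene. CFP1 was listed in 0 of 12 libraries in the Arg1 window. In 5 of the 6 WT libraries the nearest CFP1 peak lay 45 kb away at that same end of Med23, in WT DN replicate 2 it lay 279 kb away, and in KO libraries it lay 161 to 4600 kb away.

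Because Arg1 is also a marker of macrophages, markers of other cells were measured beside it. Of 13 macrophage and myeloid genes, 0 to 1 carried H3K4me3 within 1 kb of their start in a WT library and 0 to 4 in a KO library, and 8 were at 0 in all 12, among them Csf1r, Cd68, Mrc1, Chil3 and Retnla. Of 11 mast cell, basophil and eosinophil genes, 0 were marked in WT libraries and 0 to 1 in KO libraries. At their starts these markers were at or near 0 in the 6 libraries in which Arg1 was marked, with Adgre1 marked in WT CCR6+ replicate 1. In gene plus 10 kb, 2 to 4 of the 13 macrophage and myeloid genes held a peak per WT library and 1 to 7 per KO library. The part of such cells in the Arg1 mark was not tested.

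Among the genes whose covered bases followed Arg1 most closely over the 12 libraries were Nupr1 (Pearson r = 0.999 on log2 of bases plus 1), Hcn4 (0.995), Iars2 (0.942) and Cyb5a (0.909). The 12 points share library depth and peak width, and these values are a description. Nupr1 and Hcn4 have the same division as Arg1, 6 WT and 0 KO libraries, which alone brings r near 1. Their r thus restates the division by which Arg1 was chosen. Nupr1, a stress-response gene, had 328 to 1122 bases in WT and 0 in KO libraries. Hcn4, a channel gene best known from heart pacemaker cells, had 469 to 1270 bases in WT and 0 in KO libraries, none within 1 kb of its start. Iars2 and Cyb5a were marked in all 12 libraries with narrower coverage in KO, at Cyb5a 1377 to 2860 bases in WT and at most 1133 in KO.

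**Figure D3:**
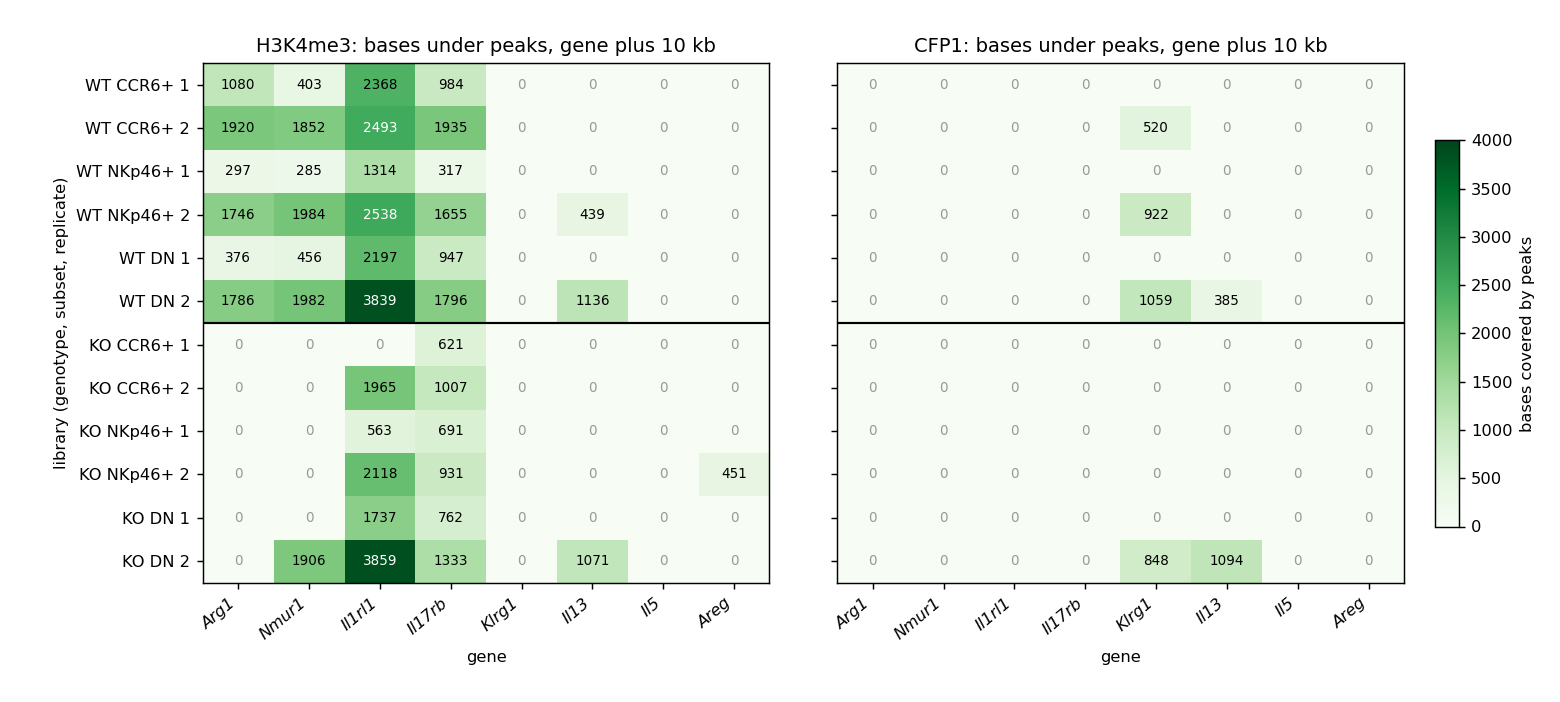
Bases covered by H3K4me3 peaks (left) and CFP1 peaks (right) in each gene plus 10 kb (columns) in each library (rows, WT above the line, KO below). Numbers are bases and darker green is more. Il17rb, at the start it shares with Chdh, has H3K4me3 in 6 KO libraries, Arg1 in 0 and Nmur1 in 1. The H3K4me3 in the Il1rl1 window lies mostly at the start of Il18r1, and at an Il1rl1 start it is in 1 WT and 1 KO library. CFP1 appears at Klrg1 and Il13 in replicate 2 alone.

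Nmur1, the receptor through which neuromedin U from enteric neurons activates ILC2s (chr1:86386242-86389361), was marked in 6 of 6 WT libraries and 1 of 6 KO libraries. The covered bases were 403 and 1852 in WT CCR6+ cells, 285 and 1984 in WT NKp46+ cells and 456 and 1982 in WT DN cells. Of the KO libraries, DN replicate 2 had 1906 bases and the other 5 had 0. Its peak had a fold of 4.92 and a −log10 q of 15.84, against folds of 4.75 to 6.53 in WT. The groups overlapped through this library, and without it Nmur1 was marked in 0 of 5 KO libraries. With peaks of fold 5 or more alone, Nmur1 was marked in 5 WT and 0 KO libraries. The division by replicate number was wide in WT, 285 to 456 bases in replicate 1 and 1852 to 1984 in replicate 2. The narrow peaks overlapped the promoter printed above, and the wide ones reached into the gene (chr1:86387440-86389585 in all). CFP1 was listed in 0 of 12 libraries, and its nearest peak lay 17.1 to 26.8 kb away.

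Il17rb encodes a subunit of the receptor for IL-25, the tuft cell cytokine that acts on ILC2s. It was marked in 12 of 12 libraries. Its start lies 5 bases from that of Chdh, a choline dehydrogenase gene transcribed the other way, so the mark (chr14:30008344-30010327) belongs to a shared start and cannot be assigned to either gene. The covered bases were 984 and 1935 in WT CCR6+ cells, 317 and 1655 in WT NKp46+ cells, and 947 and 1796 in WT DN cells. In KO they were 621 and 1007 in CCR6+ cells, 691 and 931 in NKp46+ cells, and 762 and 1333 in DN cells. In replicate 2 each WT library (1655 to 1935) was above each KO library (931 to 1333), and in replicate 1 the genotypes overlapped. Folds were 3.98 to 9.81, and with peaks of fold 5 or more alone the mark was in 6 WT and 4 KO libraries. CFP1 was listed in 0 of 12 libraries at this CpG-rich start. Of 9601 gene starts with H3K4me3 in all 12 libraries, 23.8% held CFP1 in 0 libraries, as Il17rb did.

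Il1rl1 encodes ST2, the receptor for IL-33, and spans chr1:40404864-40465418. Its window was marked in 6 WT and 5 KO libraries, but the main peak (chr1:40465557-40468146) lay at the start of the next gene, Il18r1, the IL-18 receptor gene that begins 134 bases beyond Il1rl1. That peak was missing in KO CCR6+ replicate 1, the shortest H3K4me3 list (11794 peaks). At an Il1rl1 start of its own (chr1:40429610-40431183) H3K4me3 was listed in 2 of 12 libraries, WT DN replicate 2 with 1270 bases and a fold of 5.71, and KO DN replicate 2 with 1439 bases and a fold of 5.99. The DN libraries of replicate 2 thus had the mark in both genotypes, and the CCR6+ and NKp46+ libraries had none. The promoter printed above ends at the lower edge of this place. CFP1 was listed in 0 of 12 libraries.

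Klrg1 encodes an inhibitory receptor of mature ILC2s and effector lymphocytes and spans chr6:122270596-122282833. H3K4me3 was listed in 0 of 12 libraries, and CFP1 in 3 WT libraries and 1 KO library, all of replicate 2. The CFP1 peak inside the gene (chr6:122274028-122274719) was 520 bases wide in WT CCR6+ cells, 508 in WT NKp46+ cells, 692 in WT DN cells and 447 in KO DN cells, with folds of 4.29, 6.53, 6.46 and 4.85. A further CFP1 place 9.14 kb beyond the gene (chr6:122291977-122292432) was listed in WT NKp46+ and in WT and KO DN replicate 2. Neither place overlapped an H3K4me3 peak in any library, so CFP1 was listed at these places without the mark. The nearest H3K4me3 peak lay 11.3 to 25.8 kb from the gene. Just outside the window, CFP1 overlapped H3K4me3 in WT NKp46+, WT DN and KO NKp46+ replicate 2. The CFP1 peak there did not overlap it in WT CCR6+ and KO DN replicate 2. In two-sided Fisher's exact tests over 8435 windows with CFP1 in 2 to 10 libraries, Klrg1 had an exact p of 0.545 (0.729 after Benjamini-Hochberg adjustment) for genotype, with 0 windows passing after adjustment (0%, smallest adjusted p = 0.235) and 544 (6.45%), all with fewer KO libraries, under an unadjusted 0.05. Without the KO DN library of replicate 2, 389 windows passed. Without that library and KO NKp46+ replicate 2, CFP1 at Klrg1 was in 3 of 6 WT and 0 of 4 KO libraries. Both libraries left out were of replicate 2, so this division cannot be told apart from replicate number. CFP1 in 2 or more libraries of replicate 2 and none of replicate 1 was seen at 15.7% of the 8435 windows.

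Il13, Il5 and Areg encode the effector proteins. Il13, a driver of mucus production and tuft cell expansion (chr11:53631323-53634702), had H3K4me3 at its own start in 0 of 12 libraries. A peak 3.29 kb from the gene on its lower side (chr11:53626897-53628032) was listed in WT NKp46+ replicate 2 with 439 bases and a fold of 2.85, in WT DN replicate 2 with 1136 bases and a fold of 7.04, and in KO DN replicate 2 with 1071 bases and a fold of 6.32. DN cells of replicate 2 were high in both genotypes, and CCR6+ cells were at 0. All 3 libraries were of replicate 2, as at 16.2% of the 2060 windows. CFP1 lay on that place in KO DN replicate 2 (1094 bases, fold 3.27), and 1.07 kb before the start in WT DN replicate 2 (385 bases, fold 3.73). For genotype, CFP1 at Il13 in 1 WT and 1 KO library gave an adjusted p of 1 in Fisher's exact test. Without the 2 long KO CFP1 lists, both of replicate 2, CFP1 at Il13 was in 1 WT and 0 KO libraries.

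Il5, the eosinophil growth factor gene (chr11:53720794-53725103), had no peak of either antibody in its window. The nearest H3K4me3 peak lay 10.3 to 13.2 kb away in each library, just outside the window, and the nearest CFP1 peak 12 to 370 kb away. Just inside the limit of 10 kb lay the Klrg1 CFP1 place at 9.14 kb. The quiet Il5 window lay beside active starts: Rad50, Irf1, Kif3a, Septin8 and Slc22a5 of the same chromosome 11 region carried H3K4me3 in all 12 libraries. Slc22a4, a carnitine transporter family gene, carried it in 1 WT and 5 KO libraries (adjusted p = 0.843, Fisher's exact test). Il4, the type 2 cytokine gene next to Il13, carried it within 1 kb of its start in 3 WT and 6 KO libraries (adjusted p = 0.923, Fisher's exact test).

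Areg, which encodes the epidermal growth factor receptor ligand amphiregulin (chr5:91139599-91148432), was marked in 0 WT libraries and 1 KO library. KO NKp46+ replicate 2, the longest H3K4me3 list with 18127 peaks, had 451 bases (chr5:91139177-91139627) with a fold of 3.54, higher than 4.51% of the peaks in its list, and a −log10 q of 3.14. In the other 11 libraries the nearest H3K4me3 peak lay 207 to 208 kb away, and CFP1 lay at least 236 kb away in all 12.

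Counted per library, 4, 4, 4, 5, 4 and 5 of the 8 genes were marked by H3K4me3 in WT CCR6+, NKp46+ and DN cells (replicate 1 then 2 in each), and 1, 2, 2, 3, 2 and 4 in KO. The means were 4.33 ± 0.516 in WT and 2.33 ± 1.03 in KO (SD, n = 6), a difference of −2, of which Arg1 and Nmur1 make up most. KO was lower in each of the 6 pairings by subset and replicate. The mean gap was 2.33 genes in replicate 1 (4 against 1.67) and 1.67 in replicate 2 (4.67 against 3). Arg1, by which the set was chosen, lowers KO in every pairing, so nothing is read from this regularity. Without Arg1, the DN libraries of replicate 2 held equal numbers of marked genes. These counts are for gene plus 10 kb, where Il1rl1 entered mostly through the Il18r1 start and Il13 through a peak 3.29 kb away. At their own starts (either gene end for Arg1 and Klrg1), 3, 3, 3, 3, 3 and 4 genes were marked in WT. In KO they were 1, 1, 1, 2, 1 and 3, in the same order (means 3.17 and 1.5). Over all 2060 windows compared, 3.98% were marked in 3 or more fewer KO than WT libraries and 22% in 3 or more additional KO libraries, with a median difference of 1 library more in KO. Arg1 and Nmur1 thus differed in the less common direction, which for Arg1 its choice fixes. Nmur1 was chosen with earlier results of these data known, so nothing is read from its direction. After adjustment, 0 of 2060 windows passed (0%, smallest adjusted p = 0.752, Fisher's exact test). A window could pass only if many others had a p about as small. The widest division was held by 3 windows with 6 WT and 0 KO libraries and 2 with the reverse, so nothing is read from the 0. Before adjustment 32 had a p under 0.05, 11 (0.534%) with fewer and 21 (1.02%) with additional KO libraries. CFP1 marked 0 to 2 of the 8 genes per library, 0.667 on average in WT and 0.333 in KO, and 0 in KO without the 2 long lists. All CFP1 peaks at these genes were in replicate 2, as were both long lists. The 0 without those lists therefore cannot be told apart from replicate number. At their own starts the 8 genes had CFP1 in 0 of 12 libraries.

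**Figure D4:**
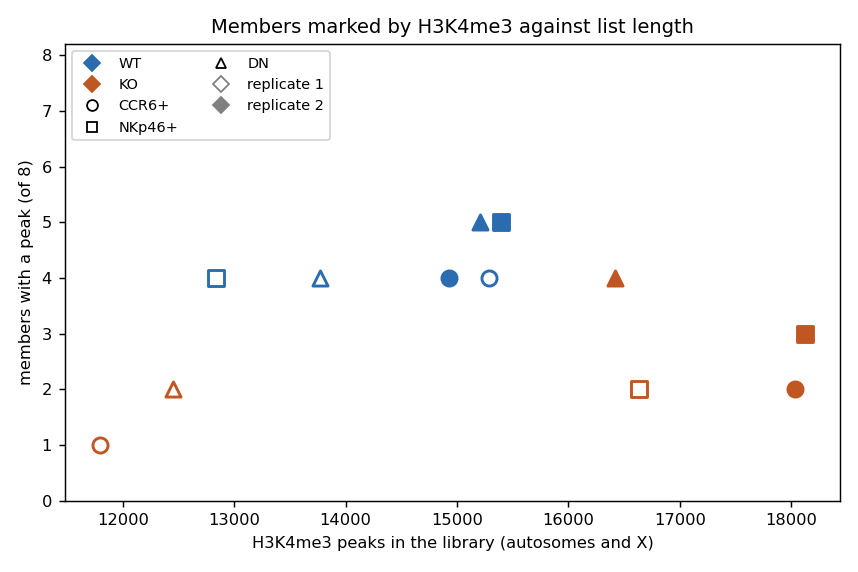
Number of the 8 ILC2-associated genes with H3K4me3 in gene plus 10 kb (vertical axis) against the number of H3K4me3 peaks in the library (horizontal axis), for 6 WT (blue) and 6 KO (orange) libraries; shape gives the subset and filled symbols are replicate 2. WT libraries hold 4 to 5 marked genes at 12838 to 15397 peaks, and the 4 KO libraries with more peaks than any WT list hold 2 to 4. Il1rl1 is counted mostly through a peak at the start of Il18r1.

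The subsets were compared as 4 libraries against the other 8. Arg1 was marked in the 2 WT libraries of each subset, which its choice fixes, so nothing is read from its subset values. Nmur1 was marked in 3 of 4 DN libraries and 4 of the other 8 (Fisher's exact p = 0.576), and Il13 in 2 of 4 DN libraries and 1 of the other 8 (exact p = 0.236). Adjusted over 2060 windows, the Fisher's exact p was 1 for each of these, and 0 windows passed for any subset (0%, smallest adjusted p = 0.832). Here too a window could pass only if many others had a p about as small. Before adjustment a p under 0.05 was reached by 24 windows for CCR6+ (1.17%), 17 for NKp46+ (0.825%) and 13 for DN (0.631%), none of them an ILC2-associated gene described here. Il17rb, Il1rl1, Klrg1, Il5 and Areg were marked in too many or too few libraries to be tested. Of 10 T cell genes measured, 8 to 10 were marked in DN libraries, 3 to 9 in CCR6+ and 3 to 9 in NKp46+ libraries, ranges that overlap and whose difference was not tested. Cd5 was marked in the 4 DN libraries and 0 others. T cells can also express Il13, Il1rl1 and Areg, and the part of T cell markers in the DN peaks at Il13 and Il1rl1 was not tested.

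Other genes of ILC2 biology were counted at their starts. Of all 21631 genes, 757 (3.5%) were marked in fewer and 1519 (7.02%) in additional KO libraries, with a median difference of 0 libraries. Of 22 ILC2 transcription factor genes, 17 carried H3K4me3 at the start in all 12 libraries, among them Gata3, Gfi1, Bcl11b, Id2 and Zbtb16, and 0 were marked in fewer KO libraries. Of 29 other ILC2 receptor and surface genes, 12 were marked in fewer KO libraries, 4 in additional KO libraries and 13 in equal numbers. Il2ra, the IL-2 receptor alpha chain, was marked in 6 WT and 3 KO libraries (adjusted p = 0.923, Fisher's exact test). Of 16 other type 2 cytokine and effector genes, 2 were marked in fewer and 5 in additional KO libraries, and 7, among them Il9, Il25 and Tslp, in 0 libraries. Over the genes of each of these 3 lists, the median difference was 0 libraries, and 0 genes passed Fisher's exact test after adjustment over all 1884 starts tested (0%, smallest adjusted p = 0.68). Over those starts, 17 (0.902%) had fewer and 19 (1.01%) had additional KO libraries at an unadjusted p below 0.05. A start could pass after adjustment only if many others had a p about as small.

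Of 21 genes of arginine and polyamine metabolism, the pathway that arginase 1 feeds, 0 were marked in fewer KO libraries and 3 in additional ones. Odc1 (ornithine decarboxylase), Srm, Sms, Azin1 and Oat were marked in all 12 libraries, and Nos2, which competes with arginase for arginine, in 0. Of 10 genes of the epidermal growth factor family, 0 were marked in fewer and 3 in additional KO libraries. Of 16 genes of the IL-1 and IL-17 receptor families, 5 were marked in fewer and 1 in additional KO libraries, and Il1r1 was in 6 WT and 3 KO libraries (adjusted p = 0.923, Fisher's exact test). Of the cell type markers, 9 of 18 ILC3 genes were marked in fewer and 0 in additional KO libraries, with a median difference of −0.5 libraries and with 12 to 15 marked per WT and 6 to 11 per KO library. At Il23r the adjusted p was 0.746 (Fisher's exact test), as it was at Ccr6 (4 WT, 0 KO) and Lta (6 WT, 2 KO), and Cxcr5 had 6 WT and 3 KO libraries (0.923). Of the 18 ILC3 genes 0 passed the adjusted test, and 2, Il23r among them, had an unadjusted p below 0.05. Some of the ILC3 genes, among them Gata3, Id2, Il7r, Kit and Il1r1, also stand in the ILC2 or IL-1 receptor lists. Of the 10 T cell genes, 7 were marked in fewer and 0 in additional KO libraries, with a median difference of −1 library, 5 to 10 marked per WT and 3 to 10 per KO library, and 0 under 0.05 in Fisher's exact test before or after adjustment. The part of T cells in the genotype values of the ILC2-associated genes was not tested.

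**Figure D5:**
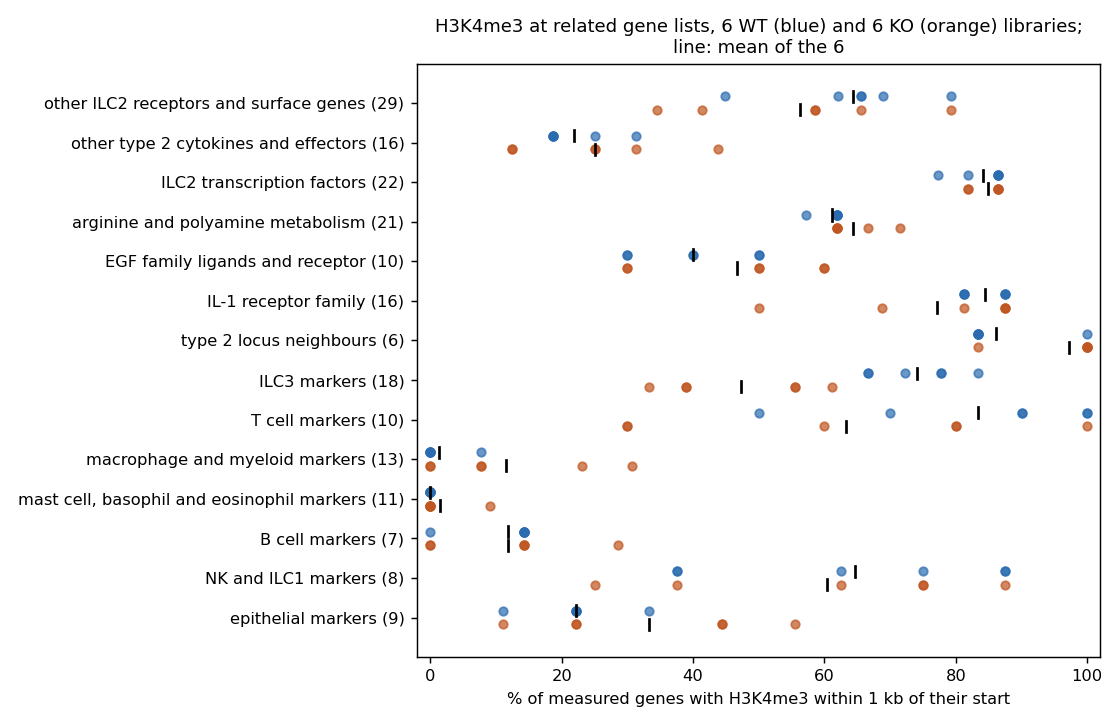
Percent of the measured genes of each list (number in brackets) with H3K4me3 within 1 kb of the start, for 6 WT (blue) and 6 KO (orange) libraries; short lines are means of 6. ILC3 genes lie at 12 to 15 of 18 in WT and 6 to 11 of 18 in KO libraries, while the ILC2 transcription factor genes lie close together in both genotypes. These lists share Gata3, Id2, Ahr and Rora, and 17 of the 22 ILC2 transcription factor genes were marked in all 12 libraries.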

How the data were processed

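CUT&Tag with antibodies to CFP1 and H3K4me3 had been made in 24 libraries of sorted mouse ILC3s. Tools named in the submitters' processing notes were MACS2 2.2.7.1, Bowtie2 2.3.5.1, fastp 0.19.7, ChIPseeker 1.28.3 and Picard, with build mm10. How they were set, and any control or removal of duplicates, is not given in the sources used here. For each library the authors deposited 1 peak list, with positions, a fold enrichment ratio and −log10 p and q per peak, used only within a list.

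Peaks on the 19 autosomes and X were overlapped, by 1 base or more, with 21631 protein-coding genes (RefSeq, GRCm38.p6) plus 10 kb. "At the start" means within 1 kb of a RefSeq start, or of either gene end for 4357 genes with no promoter entry, Arg1 and Klrg1 included. Two-sided Fisher's exact tests (6 against 6 or 4 against 8 libraries) ran on genes marked in 2 to 10 of 12 libraries, Benjamini-Hochberg adjusted over all of them, threshold 0.05; the smallest p possible was 0.00216 and 0.00202. After adjustment a gene could pass only if many others had a p about as small, so a count of 0 says nothing about single genes. The test code was tested on simulated data in which many genes were given the widest division. The 8 genes and all lists were chosen with earlier results of these data known. Named besides them were neighbours under a peak, list genes differing by 3 or more libraries or marked in 1 subset alone, the 5 genes most like Arg1, and examples marked in 12 or 0 libraries, picked after their values were seen; some items that meet the rule are not reported here. Alternatives were fold 5 or more, other windows and overlaps, covered bases, a replicate block and leaving out libraries. The work used Python 3.11.15 (SciPy 1.17.1, pandas 2.3.3, matplotlib 3.10.9, NumPy 2.4.6).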

Additional observations from a re-analysis of the deposited data

Results flagged for a closer look

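In groups of 6 libraries, 7 values stood alone above the other 5, all of which were at 0, which happens wherever 1 library of 6 holds a peak. Of the groups examined, 18 had any range and 18 held a single value throughout. The usual chance rate of about 1 in 20 groups does not apply to groups that are mostly at 0. Among KO libraries, DN replicate 2 had 1906 bases of H3K4me3 at Nmur1 and 1071 at Il13, and 848 bases of CFP1 at Klrg1 and 1094 at Il13. It was also the only KO library with CFP1 at any of the 8 genes, at 2 of them. KO NKp46+ replicate 2 had 451 bases of H3K4me3 at Areg. Among WT libraries, DN replicate 2 had 385 bases of CFP1 at Il13.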

How the results depend on the processing

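The number of the 8 genes marked by H3K4me3 per library was lower in KO under all 19 alternatives (−2.33 to −1.5 against −2). Leaving out each library gave −2.33 to −1.73. Arg1, chosen for this direction, enters each of these counts, so they remain a description. For CFP1 the difference of −0.333 ranged from −0.667 to −0.067 when each library was left out and was 0 at the genes' own starts. The Arg1 covered bases, −1201, were −1382 to −1057 when each library was left out and −521 with peaks of fold 5 or more. Of 144 alternatives for presence at single genes, 141 moved by less than the pooled SD among libraries of a genotype, or not at all. The other 3 moved by more: with fold 5 or more Arg1 went to −0.667 and Il17rb to −0.333 (KO minus WT share of libraries), and Il17rb to 0.167 without flanks. That SD was 0 for H3K4me3 at Arg1 and Il17rb, where any shift counts. It reached 0.483 for CFP1 at Klrg1, where few shifts can, so the count of 141 says little about stability. Over all genes, 0 windows passed for H3K4me3 between genotypes or subsets under every alternative run, with unadjusted counts of 36 to 155 (genotype) when each library was left out. A window could pass only if many others had a p about as small, so these counts of 0 say nothing about stability. For CFP1, leaving out each library gave 0 to 389 windows, 389 without KO DN replicate 2; the cause was not tested. With a replicate block, the H3K4me3 difference was −2, that of CFP1 −0.333 and that of Arg1 −1201. Each block held equal numbers of WT and KO libraries, so these differences had to equal the main ones and say nothing about stability. In the blocked test 0 windows passed, with 5 instead of 32 (H3K4me3) and 63 instead of 544 (CFP1) at an unadjusted p under 0.05. For CFP1, 63 windows were also marked in all WT and no KO libraries, the widest division possible. With so few pairs of libraries the blocked test had little room to pass a window, so nothing is read from its 0. Libraries with the same number deviated together, with positive correlations in all 15 pairs of groups for each antibody. They were 0.04 to 0.52 (median 0.2) for H3K4me3 and 0.06 to 0.34 (median 0.21) for CFP1. Peak widths and the CFP1 peaks at the 8 genes also divided by replicate number. Because not all correlations were above 0.1, the main tests did not pair libraries by number, and they leave this shared deviation in. Without the 2 KO libraries with the shortest H3K4me3 lists, chosen after seeing the data, the differences were −1.58 genes and −1201 bases. Unknown depth limits every statement that a peak was absent.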
